A study of Mus musculus with 12 samples.

Results

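The genes described here make, bind and break down hyaluronan, or form the versican matrix that hyaluronan organises. They are 9 of the 55228 genes in the deposited count tables and were taken by symbol from a list: the hyaluronan synthases Has1, Has2 and Has3, the hyaluronidases Hyal1 and Hyal2, the receptor Cd44, the proteoglycan Vcan, the link protein Hapln3 and the hyaluronan-binding protein Tnfaip6. The libraries hold poly(A) RNA of bladder or urethral mesenchyme from female embryos of the CD-1 mouse strain, all Wildtype and untreated, collected at E14.5 or E18.5 (E, embryonic day). Each of the 4 groups, E14.5 bladder, E14.5 urethra, E18.5 bladder and E18.5 urethra, had 3 libraries, and each library came from the pooled females of 1 litter. Mesenchyme had been parted from epithelium with cold trypsin and forceps, so a library can hold every cell type left in that layer. All 9 genes were among the 18805 that passed the filter on low counts.

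Hyaluronan is a very long, unbranched sugar polymer that synthases of the plasma membrane spin directly into the space around the cell, where it holds water and keeps young tissue loose. Versican, a large chondroitin sulfate proteoglycan, binds it through a globular end, link proteins lock the pair together, and Tnfaip6 can attach protein chains to the polymer. Hyaluronidases cut the polymer, and Cd44 ties it to the cell surface. Such a matrix is typical of embryonic mesenchyme and tends to give way to fibrous matrix as connective tissue matures.

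From E14.5 to E18.5 the synthase transcripts changed in different directions. Has2 fell in urethral mesenchyme 2.44-fold, Has3 rose 5.49-fold in bladder and 4.46-fold in urethra, and Has1 went from no count in E14.5 bladder to at least 1.18 CPM (a gene's count relative to the library total, after TMM scaling, which corrects for library makeup) in every E18.5 bladder library. Vcan fell 2.40-fold and Hapln3 4.41-fold in bladder, and Cd44 rose 2.94-fold in bladder and 3.32-fold in urethra. A change was called at an adjusted p under 0.05 in edgeR's quasi-likelihood test with Benjamini-Hochberg adjustment over all tested genes, the source of every adjusted p given here. Has2 in bladder and Vcan and Hapln3 in urethra also fell, without a call (log2 differences, E18.5 minus E14.5, -0.70, -0.61 and -0.90). The test of a change in the compartment difference called none of these genes (adjusted p = 0.431, 0.299 and 0.109). Between compartments, Has3 and Tnfaip6 were higher in urethral mesenchyme at both stages. In these bulk libraries, fewer cells of a type and less RNA per cell cannot be told apart.

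All 9 genes lie at the same positions in the count tables and in the GENCODE mouse release for the same build, GRCm38. Vcan spans chromosome 13 from 89655312 to 89742509, Has2 chromosome 15 from 56665627 to 56694539, Has1 chromosome 17 from 17843323 to 17855205, and Hapln3 chromosome 7 from 79115102 to 79131018, all on the minus strand. On chromosome 2, Cd44 spans 102811141 to 102901665 on the minus strand and Tnfaip6 spans 52038009 to 52056686 on the plus strand. Has3 lies on chromosome 8 from 106870242 to 106884566, and Hyal2 (107567945 to 107572779) and Hyal1 (107576927 to 107581710) are neighbours on chromosome 9, all on the plus strand. Exons of Naa80 on the same strand cover 50.8% of the exon bases of Hyal1, so the level of Hyal1 depends on how shared reads were assigned and is uncertain. Opposite-strand exons cover 4.3% of Has2 (the antisense gene Has2os) and 5.52% of Has3, and whether counting used strand is not given in the sources used here.

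Of the 9 members, 7 have a promoter entry in RefSeq (GRCm38.p6). Has2 and Has3 are named only. The sequences before the gene start of 4 members are shown because these members move apart from each other: Has1 rose in bladder, Vcan fell there, Tnfaip6 differed between compartments, and Cd44 rose in both. They run 5′ to 3′ on the gene's own strand, end just before the start given in the count table or in RefSeq, whichever comes first, and span chr17:17855206-17855438 (minus, 233 bases), chr13:89742513-89742762 (minus, 250 bases), chr2:52037863-52038008 (plus, 146 bases) and chr2:102901666-102901915 (minus, 250 bases). Capitals mark matches on either strand to the letters TATAAA, which some core promoters hold, TGANTCA, the AP-1 letters, GGGCGG, bound by Sp factors, or CTTTGA, bound by Tcf factors. No matches overlapped each other in these windows.
Has1: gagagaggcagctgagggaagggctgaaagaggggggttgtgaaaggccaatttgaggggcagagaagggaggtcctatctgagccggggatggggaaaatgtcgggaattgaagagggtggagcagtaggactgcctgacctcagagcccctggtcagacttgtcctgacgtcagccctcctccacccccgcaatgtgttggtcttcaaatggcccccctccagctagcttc
Vcan: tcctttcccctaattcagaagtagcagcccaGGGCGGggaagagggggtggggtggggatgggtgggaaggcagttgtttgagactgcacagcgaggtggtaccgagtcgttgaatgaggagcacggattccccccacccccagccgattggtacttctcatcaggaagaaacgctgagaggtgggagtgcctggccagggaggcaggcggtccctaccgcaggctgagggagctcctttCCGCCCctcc
Tnfaip6: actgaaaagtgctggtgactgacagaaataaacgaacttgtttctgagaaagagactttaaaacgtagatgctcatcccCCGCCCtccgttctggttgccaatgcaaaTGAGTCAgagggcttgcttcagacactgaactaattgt
Cd44: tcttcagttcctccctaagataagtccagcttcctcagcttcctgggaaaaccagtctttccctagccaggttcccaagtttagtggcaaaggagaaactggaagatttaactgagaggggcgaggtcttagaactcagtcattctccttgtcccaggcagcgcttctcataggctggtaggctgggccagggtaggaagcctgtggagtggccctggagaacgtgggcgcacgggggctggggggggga
Vcan held GGGCGG in 2 places, and 32.7% of RefSeq promoters hold it in the 250 bases before the start. Tnfaip6 held GGGCGG once and TGANTCA once, which 28.4% and 4.13% of promoters hold in the 146 bases before the start. Has1 and Cd44 held none of the 4 letter strings. In windows of 250 bases, the shares were 12.4% for TATAAA, 6.75% for TGANTCA and 13.8% for CTTTGA, and in windows of 233 bases they were 11.6%, 6.33% and 12.8%, with 32.2% for GGGCGG. These matches describe letters in the window.

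Total counts per library ranged from 21495169 to 36349777. Mesenchymal markers, among them Col1a1, Pdgfra and Vim, were present in every library (7 of 7 genes, summed level 7690 to 31900 CPM). Epithelial markers (12 genes) summed to 271 to 1290 CPM at E14.5, 7720 to 10100 CPM in E18.5 bladder and 2390 to 3680 CPM in E18.5 urethra. No gene of the epithelial, mesothelial, leukocyte, neuronal or glial lists was at 0 in any group. Replicate 1 had the highest epithelial sum in both E14.5 groups. It was 1280 against 369 and 271 CPM in bladder, and 1290 against 575 and 697 CPM in urethra. Its neuronal sums were also the highest there (222 against 43.6 and 86.2 CPM in bladder, 536 against 336 and 439 CPM in urethra). For Has2, Cd44, Vcan and Hapln3, replicate 1 in each E14.5 group stood on the side of the E18.5 levels. Results that rest on it are given with and without it. That replicate was singled out from these same values, so leaving it out widens the stage differences of these genes by selection. It can also narrow the spread, so calls gained without it are no support for a difference.

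Has2, the synthase that mouse embryos cannot live without, was read at 19.1, 24.8 and 26.6 CPM in E14.5 bladder (replicates 1 to 3) and at 12.5, 30.7 and 26.7 CPM in E14.5 urethra. At E18.5 it stood at 13.4, 19.6 and 10.6 CPM in bladder and at 9.82, 9.79 and 9.09 CPM in urethra. The E18.5 urethral libraries were the lowest of all 12, and the E14.5 groups overlapped. Has2 fell in urethra from 23.3 ± 9.54 to 9.57 ± 0.415 CPM (mean ± SD, n = 3), a log2 difference, E18.5 minus E14.5, of -1.28 ± 0.30 (SE) with an adjusted p of 0.00972 from edgeR's quasi-likelihood test. In bladder the log2 difference between stages was -0.70 ± 0.30 (adjusted p = 0.0737). Without replicate 1 of both E14.5 groups it was -0.82 (adjusted p = 0.00968), without E14.5 urethral replicate 1 it was -0.70 (adjusted p = 0.0183), and without E18.5 bladder replicate 2 it was -0.97 (adjusted p = 0.0308). With only the libraries compared it was -0.68 (adjusted p = 0.0499). Between compartments Has2 gave log2 differences, bladder minus urethra, of 0.01 ± 0.30 at E14.5 (adjusted p = 0.981) and 0.60 ± 0.30 at E18.5 (adjusted p = 0.15). The E18.5 difference passed the threshold without E14.5 urethral replicate 1 (0.60, adjusted p = 0.048), whose own Has2 level was the lowest of its group, and without replicate 1 of both E14.5 groups (0.59, adjusted p = 0.0378). Has2os, its antisense transcript, lay between 0.979 and 1.49 CPM in the group means.

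Has3, a synthase often found in epithelia, differed between all 4 groups in level. It measured 0.96, 1.41 and 0.692 CPM in E14.5 bladder, 3.63, 2.30 and 3.56 CPM in E14.5 urethra, 5.34, 6.54 and 5.06 CPM in E18.5 bladder and 16.6, 12.9 and 12.7 CPM in E18.5 urethra. No neighbouring pair of groups overlapped in this order. Has3 was higher in urethra at E14.5 (log2 difference -1.62 ± 0.30, adjusted p = 0.00261) and at E18.5 (-1.32 ± 0.27, adjusted p = 0.0023). Between stages it rose by 2.46 ± 0.30 in bladder (adjusted p = 6.04e-05) and 2.16 ± 0.28 in urethra (adjusted p = 0.000464) on the log2 scale. The change of the compartment difference was 0.30 ± 0.40 (adjusted p = 0.694). Epithelial marker sums rose with stage, and at E18.5 they were higher in bladder. Of the 12 epithelial markers, 5 were called higher in bladder at E18.5 and 7 were not called. At E14.5 Krt5, Trp63 and Grhl2 were called higher in urethra, Upk2 was called higher in bladder and 8 were not called. The part of epithelial RNA in the Has3 differences was not tested.

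Has1, the third synthase, had 0 counts in all 3 E14.5 bladder libraries and 2 counts in each E14.5 urethral library. At E18.5 it reached 4.67, 1.82 and 1.18 CPM in bladder against 0.102, 0.369 and 0.117 CPM in urethra, so every E18.5 bladder library was above every other library. With a floor of 3 counts over the group, which corresponds to 0.0434 CPM, Has1 was at least 58.9-fold higher in E18.5 than in E14.5 bladder (adjusted p = 0.000169). Without E18.5 bladder replicate 1, the highest library, it was at least 32.8-fold higher. Against E18.5 urethra the ratio of summed counts was 14.7 (196 against 17 counts, exact binomial 95% interval 8.98 to 25.8, covering counting error only, adjusted p = 0.00156). That ratio was 8.21 without bladder replicate 1 and 23.5 without urethral replicate 2. In urethra the stage ratio was 2.66 (17 against 6 counts, interval 0.999 to 8.23, adjusted p = 0.267). The change of the compartment difference between stages was called (adjusted p = 0.0276), but not with the replicate number as a block (adjusted p = 0.0627), and not without any 1 of 6 single libraries (adjusted p 0.0505 to 0.0666). Values of 2 were 2.06 to 2.51 times as frequent as values of 1 across genes, as counting both reads of a pair gives. These intervals are therefore too narrow, and the bounds of 58.9-fold and 32.8-fold, set with a floor of 3 counts, are too high.

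Mesothelium, the lining of the outer bladder wall, is a cell type known to make hyaluronan. Its 4 markers (Upk3b, Msln, Muc16 and Lrrn4) summed to 892 to 1140 CPM in E18.5 bladder, 80.0 to 136 CPM in E18.5 urethra, 86.6 to 363 CPM in E14.5 bladder and 8.33 to 14.2 CPM in E14.5 urethra. In 2 E14.5 bladder libraries the mesothelial sum was above that of every E18.5 urethral library, and Has1 had no count there. Within E18.5 bladder, replicate 3 had the highest mesothelial sum (1140 CPM) and the lowest Has1 level. Other marker lists were also highest in E18.5 bladder, as Has1 was. Epithelial sums were 7720 to 10100 CPM there, 2390 to 3680 CPM in E18.5 urethra, 271 to 1280 CPM in E14.5 bladder and 575 to 1290 CPM in E14.5 urethra. Smooth muscle markers (5 genes) summed to 19900 to 36100 CPM in E18.5 bladder, 2210 to 2550 CPM in E18.5 urethra, 6030 to 7860 CPM in E14.5 bladder and 1530 to 3340 CPM in E14.5 urethra. Skeletal muscle markers (5 genes) summed to 2810 to 4380, 380 to 503, 12.3 to 259 and 4.24 to 69.7 CPM in the same order of groups. In E18.5 bladder that sum was mostly Acta1 (mean 3166 CPM) and Ckm (599 CPM), both called higher there than in E18.5 urethra. Myod1, Myog and Actn2 went the other way and were called lower in E18.5 bladder (log2 differences -9.47, -8.73 and -5.29). Over the 12 libraries, Pearson's r with Has1 was 0.872 for the epithelial sum, 0.81 for skeletal muscle and 0.739 for lymphatic endothelium. For smooth muscle it was 0.699, for glia 0.667, for leukocytes 0.664 and for mesothelium 0.626. These values describe libraries that share stage and compartment, and outside E18.5 bladder no library held more than 9 Has1 counts. The part of any of these cell types in the Has1 result was not tested.

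Compared per kilobase of exon, the only scale on which levels of different genes are set side by side here, the synthases changed their shares more than their sum. The summed level of the 3 genes was 5.71 ± 0.924 CPM per kb in E14.5 bladder, 6.01 ± 2.17 in E14.5 urethra, 4.88 ± 1.25 in E18.5 bladder and 4.51 ± 0.40 in E18.5 urethra. Has2 made up 97.1% ± 1.02 of it in E14.5 bladder and 90.1% ± 5.98 in E14.5 urethra. At E18.5 its share was 69.9% ± 6.77 in bladder and 50.2% ± 2.99 in urethra. Has3 supplied 48.8% ± 3.57 in E18.5 urethra and 18.6% ± 3.18 in E18.5 bladder, where Has1 supplied a further 11.5% ± 7.8, between 6.67% and 20.5% in single libraries. These shares are described without a test.

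**Figure D1:**
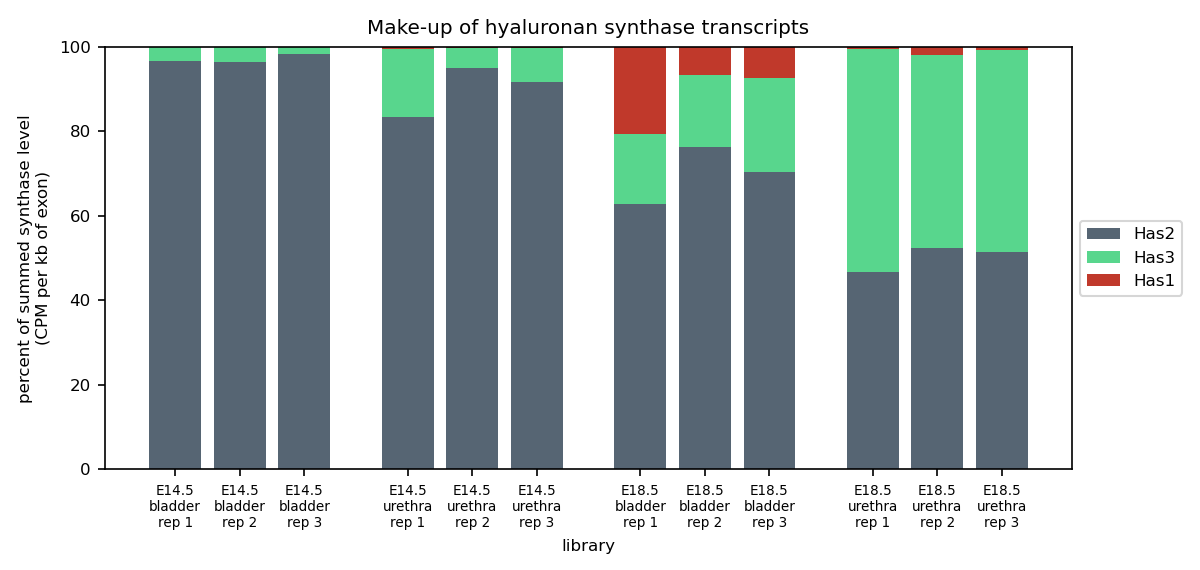
Share of each hyaluronan synthase (percent of the summed CPM per kb of exon, vertical axis) in each of the 12 libraries (bars, grouped by stage and compartment). Has2 fills 96.4% to 98.3% of the E14.5 bladder bars and 46.8% to 52.4% of the E18.5 urethral bars, and Has1 is visible mainly in E18.5 bladder.

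Vcan, the matrix proteoglycan, had the highest mean level per kb of the members in each of the 4 groups, with Hyal2 next. In E14.5 bladder the means were 38.5 ± 12.2 CPM per kb for Vcan and 22.1 ± 3.16 for Hyal2. In E18.5 bladder they were 16.1 ± 3.55 and 14.1 ± 1.87, the ranges of the libraries overlapped, and Hyal2 was the higher in replicate 3. Its libraries held 405, 749 and 516 CPM in E14.5 bladder, 345, 494 and 590 CPM in E14.5 urethra, 240, 280 and 178 CPM in E18.5 bladder and 369.5, 299 and 265 CPM in E18.5 urethra. All E18.5 bladder libraries lay below all E14.5 libraries. Vcan fell in bladder by 1.26 ± 0.26 on the log2 scale (adjusted p = 0.00183). In urethra the log2 difference was -0.61 ± 0.25 (adjusted p = 0.0991), and without E14.5 urethral replicate 1, the lowest of its group, it was -0.80 (adjusted p = 0.039, and 0.0176 without replicate 1 of both E14.5 groups). Compartments differed by 0.22 ± 0.25 at E14.5 (adjusted p = 0.547) and by -0.42 ± 0.25 at E18.5 (adjusted p = 0.233). Epithelial marker sums, 271 to 1290 CPM at E14.5 and 2390 to 10100 CPM at E18.5, were highest in E18.5 bladder, where Vcan was lowest, and their part in the stage difference was not tested. The table sums all Vcan exons, so splice forms with and without the chondroitin sulfate attachment exons are not separated.

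Hapln3, a link protein that joins proteoglycans to hyaluronan, was higher in bladder at E14.5. Its libraries measured 9.51, 19.4 and 14.7 CPM in E14.5 bladder and 4.42, 7.35 and 6.64 CPM in E14.5 urethra, with no overlap. At E18.5 it measured 2.84, 3.27 and 3.78 CPM in bladder and 4.19, 2.17 and 3.45 CPM in urethra, and the groups overlapped. The E14.5 log2 difference was 1.24 ± 0.31 (adjusted p = 0.0138), and 0.98 (adjusted p = 0.0636) without E14.5 bladder replicate 2. At E18.5 the difference was 0.01 ± 0.32 (adjusted p = 0.993). With stage Hapln3 fell in bladder (log2 difference -2.14 ± 0.33, adjusted p = 0.000244). In urethra the value was -0.90 ± 0.32 (adjusted p = 0.0559), and it passed without E14.5 urethral replicate 1 (-1.09, adjusted p = 0.0316), without E14.5 bladder replicate 1 (-0.90, adjusted p = 0.0337), without both (-1.09, adjusted p = 0.0139) and with DESeq2 (-0.86, adjusted p = 0.0332). A test of the change in the compartment difference gave -1.24 ± 0.45 (adjusted p = 0.109). That change passed without E14.5 bladder replicate 1 (-1.46, adjusted p = 0.0412) and with DESeq2 (-1.27, adjusted p = 0.0411).

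Tnfaip6, which transfers heavy chains onto hyaluronan and is classed as an inflammation-induced gene, differed by compartment at both stages. Bladder libraries held 2.88, 1.66 and 2.25 CPM at E14.5 and 2.17, 1.66 and 1.73 CPM at E18.5. Urethral libraries held 15.1, 5.10 and 5.91 CPM at E14.5 and 14.9, 12.01 and 9.41 CPM at E18.5. Every urethral library was above every bladder library. The log2 difference was -1.94 ± 0.40 at E14.5 (adjusted p = 0.0048) and -2.70 ± 0.41 at E18.5 (adjusted p = 0.000295). Leaving out E14.5 urethral replicate 1, the highest of its group, gave -1.28 at E14.5 (adjusted p = 0.0103). Stage differences were -0.28 ± 0.41 in bladder (adjusted p = 0.596) and 0.48 ± 0.37 in urethra (adjusted p = 0.377), the latter 1.14 without that same library (adjusted p = 0.0164, and 0.00962 without replicate 1 of both E14.5 groups). Neuronal markers, 4 genes, also ran higher in urethra (336 to 536 against 43.6 to 222 CPM at E14.5, and 287 to 839 against 31.7 to 71.2 CPM at E18.5). Replicate 1 had the highest Tnfaip6 level in both urethral groups, with the highest neuronal sum at E14.5 and the lowest at E18.5. Cartilage markers, 4 genes, were higher in urethra as well (76.3 to 103 against 13.6 to 28.5 CPM at E14.5, and 54.8 to 76.5 against 13.3 to 26.8 CPM at E18.5), with Col2a1, Col9a1 and Sox9 called at both stages and Matn1 at 0 in E18.5 urethra. The part of neuronal or cartilage RNA in the Tnfaip6 difference was not tested.

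Hyal2, a hyaluronidase anchored at the cell surface, declined with stage in both compartments. Its levels were 61.6, 74.0 and 82.2 CPM in E14.5 bladder, 75.6, 59.1 and 73.1 CPM in E14.5 urethra, 53.1, 41.0 and 45.1 CPM in E18.5 bladder and 53.0, 46.1 and 47.2 CPM in E18.5 urethra. All E14.5 libraries were above all E18.5 libraries. Log2 differences were -0.65 ± 0.14 in bladder (adjusted p = 0.00284) and -0.51 ± 0.14 in urethra (adjusted p = 0.0222). The urethral call ended without E14.5 urethral replicate 1 or 3 or E18.5 urethral replicate 2 or 3 (adjusted p = 0.0637, 0.0836, 0.0856 and 0.08). Compartments differed by 0.07 ± 0.14 at E14.5 (adjusted p = 0.755) and -0.07 ± 0.14 at E18.5 (adjusted p = 0.755), the smallest standard errors among the members.

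Hyal1, a lysosomal hyaluronidase, rose in bladder, subject to its overlap with Naa80. It measured 5.71, 5.80 and 5.36 CPM in E14.5 bladder and 10.5, 9.44 and 10.1 CPM in E18.5 bladder, a log2 difference of 0.83 ± 0.20 (adjusted p = 0.00505). Urethral levels were 7.22, 8.92 and 6.17 CPM at E14.5 and 10.1, 7.74 and 10.6 CPM at E18.5, and these groups overlapped (0.35 ± 0.20, adjusted p = 0.224). Neither compartment difference passed the threshold (-0.40 ± 0.20 at E14.5, adjusted p = 0.16, and 0.08 ± 0.20 at E18.5, adjusted p = 0.81).

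Cd44, the cell surface hyaluronan receptor, rose in both compartments. Libraries of E14.5 bladder held 22.6, 17.2 and 13.0 CPM and those of E14.5 urethra 40.3, 13.1 and 17.9 CPM. At E18.5 the values were 60.9, 48.8 and 45.7 CPM in bladder and 69.2, 102 and 64.7 CPM in urethra. Every E18.5 library exceeded every E14.5 library. The log2 rise was 1.56 ± 0.37 in bladder (adjusted p = 0.00565) and 1.73 ± 0.37 in urethra (adjusted p = 0.00746), and 2.34 (adjusted p = 0.000227) in urethra without E14.5 urethral replicate 1. Compartment differences were -0.43 ± 0.37 at E14.5 (adjusted p = 0.419) and -0.60 ± 0.36 at E18.5 (adjusted p = 0.233). At E18.5 the 2 groups did not overlap, and the difference passed when only their 6 libraries were fitted (-0.66, adjusted p = 0.0224) and without replicate 1 of both E14.5 groups (-0.61, adjusted p = 0.0313).

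Cell types known to carry Cd44 also gained signal with stage. Of 12 epithelial markers, 12 rose in bladder and 6 in urethra, and of 6 leukocyte markers, 3 rose in bladder and 6 in urethra. Among all tested genes, 23.7% rose in bladder and 13.6% in urethra. Leukocyte sums were 57.7 to 69.3 CPM in E14.5 bladder, 35.3 to 58.3 in E14.5 urethra, 108 to 123 in E18.5 bladder and 109 to 116 in E18.5 urethra. At E18.5 epithelial sums were higher in bladder and leukocyte sums overlapped, while Cd44 was higher in every urethral library. Replicate 1 of E14.5 urethra, the highest E14.5 library for Cd44, also had the highest epithelial (1290 CPM) and leukocyte (58.3 CPM) sums of its group. What these cells add to Cd44 was not tested.

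**Figure D2:**
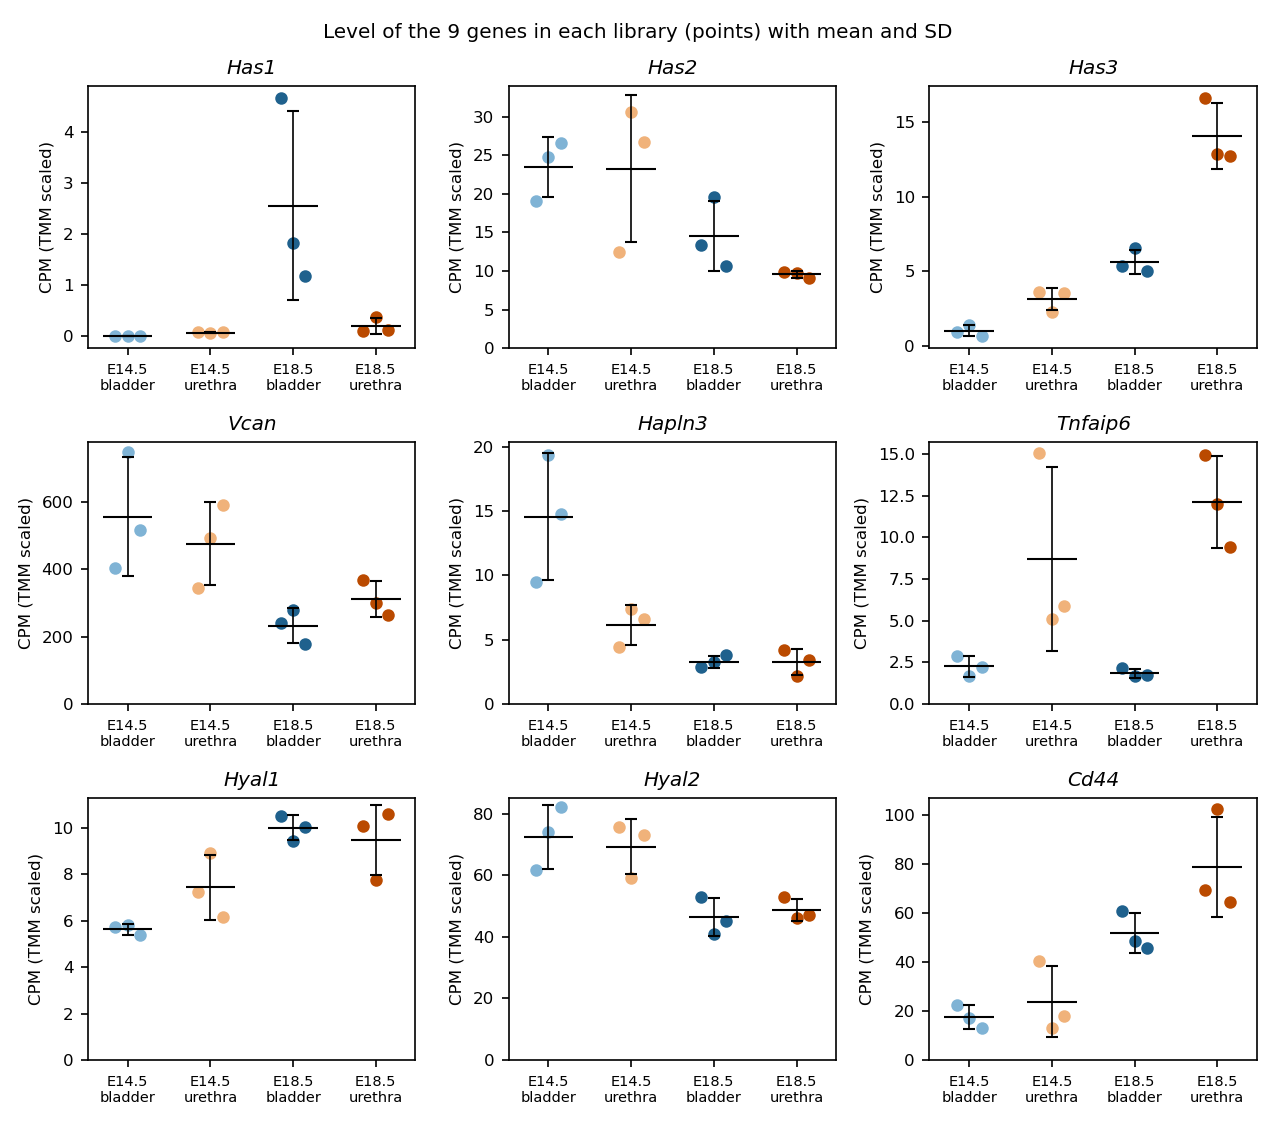
Level of each of the 9 genes (vertical axis, TMM-scaled CPM, a separate scale per gene) in the 4 groups, with 3 libraries as points, the mean as a line and the SD as a bar. Has3 climbs from 1.02 CPM in E14.5 bladder to 14.1 CPM in E18.5 urethra, Vcan and Hyal2 are lower at E18.5, and Tnfaip6 is high in urethra at both stages.

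Counting the members, 1 of 9 was higher in bladder (Hapln3) and 2 in urethra (Has3 and Tnfaip6) at E14.5, where 24.9% of all tested genes were called (12.4% and 12.5% in these directions). At E18.5, 1 of 9 was higher in bladder (Has1) and 2 in urethra (Has3 and Tnfaip6), where 34.8% were called (18.52% and 16.2%). In bladder 4 of 9 rose with stage (Has1, Has3, Hyal1 and Cd44) and 3 fell (Hyal2, Vcan and Hapln3), against 45.7% of all genes called (23.7% up and 22% down). In urethra 2 of 9 rose (Has3 and Cd44) and 2 fell (Has2 and Hyal2), against 24.4% (13.6% up and 10.8% down). The compartment difference changed between stages for 1 of 9 (Has1), toward bladder, and for 0 toward urethra, against 8.67% of all genes (4.64% and 4.03%). For the other 8 this change ran from -1.24 for Hapln3 to 0.59 for Has2, with adjusted p from 0.109 to 0.878. With 9 members, these shares are near those of all genes in the 2 compartment comparisons. The members' median log2 difference was -0.40 at E14.5 and -0.07 at E18.5, beside -0.004 and 0.047 over all genes, and -0.28 in bladder and 0.35 in urethra between stages, beside -0.023 and -0.055. The stage comparisons share their libraries with the compartment comparisons.

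**Figure D3:**
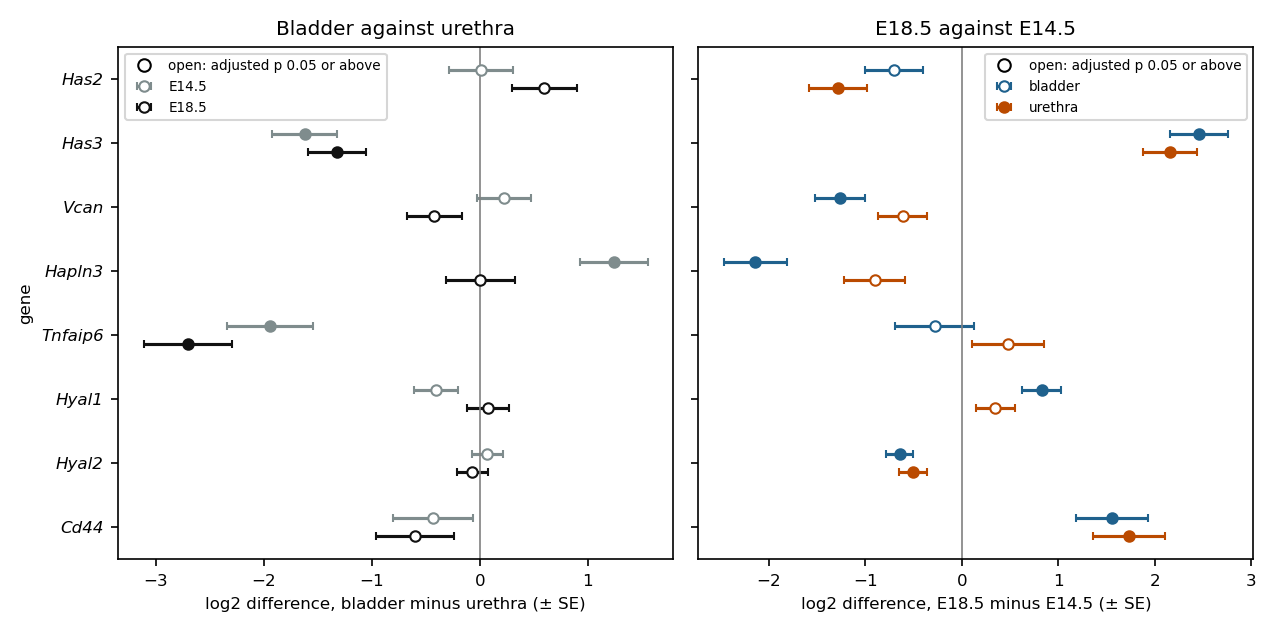
Log2 difference with its SE (horizontal axis) for 8 genes, bladder minus urethra at each stage (left) and E18.5 minus E14.5 in each compartment (right). Filled points passed an adjusted p of 0.05. Has3 and Tnfaip6 lie left of 0 at both stages, and Cd44 and Has3 lie right of 0 in both compartments. Has1 is left out because its fitted value depends on how 0 counts are handled.

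Ordered by mean level, the members fell into different sequences of groups. Has3 and Cd44 were highest in E18.5 urethra, then E18.5 bladder, E14.5 urethra and E14.5 bladder, and of these neighbours only E14.5 urethra and E14.5 bladder for Cd44 overlapped. Has2, Vcan, Hyal2 and Hapln3 were highest in E14.5 bladder, followed by E14.5 urethra. For Has2, E14.5 bladder overlapped E14.5 urethra, which in turn overlapped E18.5 bladder, while E18.5 urethra stood below. In Vcan each neighbouring pair overlapped, and Hapln3 overlapped only between the E18.5 groups. Tnfaip6 was ordered by compartment first, with overlap between stages in each.

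**Figure D4:**
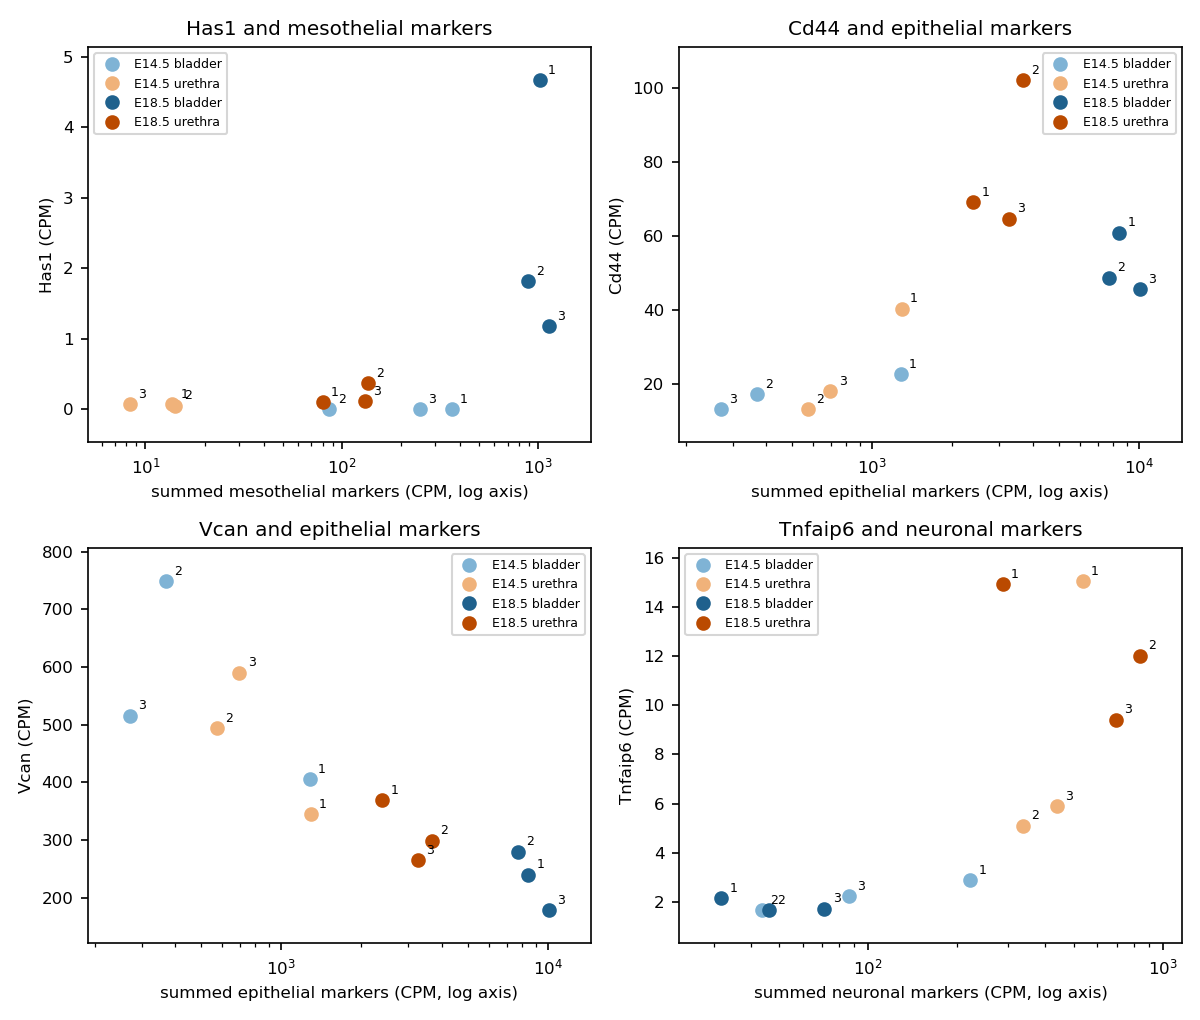
Level of 4 genes (vertical axes, CPM) against the summed level of cell type markers (horizontal axes, CPM, log scale) in the 12 libraries, coloured by group and numbered by replicate. Has1 stays at 0 in E14.5 bladder at 86.6 to 363 CPM of mesothelial markers, Cd44 is higher in E18.5 urethra than in E18.5 bladder at lower epithelial sums, and Tnfaip6 is above 5 CPM only in the urethral libraries, which have the highest neuronal sums.

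Other genes of the pathway came from a list of which 61 were in the tables and 53 were tested. Among all tested genes, 12.4% were higher in bladder and 12.5% in urethra at E14.5, and 18.52% and 16.2% at E18.5. Precursor enzymes make the sugar nucleotides from which hyaluronan is built. At E14.5, 7 of 8 were higher in bladder and 0 in urethra, and at E18.5 4 and 0 (median log2 difference 0.52 and 0.47, beside -0.004 and 0.047 over all genes). Ugdh, which makes UDP-glucuronate, stood at 183 ± 37.1 CPM in E14.5 bladder and 96.0 ± 3.06 in E14.5 urethra (log2 difference 0.93 ± 0.13, adjusted p = 0.000478), with a like difference at E18.5 (0.96 ± 0.13, adjusted p = 0.00013). Nagk, an N-acetylglucosamine kinase, was also higher in E14.5 bladder (0.90 ± 0.15, adjusted p = 0.00135). Gfpt2, of the hexosamine route, rose with stage in bladder (1.43 ± 0.14, adjusted p = 1.8e-05) and urethra (0.82 ± 0.14, adjusted p = 0.00202). Has2 gave no called difference between compartments, and Has3 was higher in urethra.

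Among 5 other hyaluronan receptors, 5 were higher in bladder at E14.5 and 4 at E18.5, with 0 higher in urethra (medians 1.01 and 0.72). Lyve1, a receptor of lymphatic endothelium and some macrophages, measured 30.5 ± 6.92 against 2.48 ± 0.116 CPM at E14.5 (3.62 ± 0.33, adjusted p = 5.5e-05) and 87.3 ± 10.96 against 14.1 ± 6.52 CPM at E18.5 (2.64 ± 0.30, adjusted p = 5.59e-05). It rose with stage in bladder (1.52 ± 0.29, adjusted p = 0.00131) and in urethra (2.49 ± 0.32, adjusted p = 0.000488). Stab2, a scavenger receptor for hyaluronan, was higher in E18.5 bladder (4.19 ± 0.55, adjusted p = 0.000115). The mean level of Cd44, in contrast, was higher in urethra at both stages, though neither difference was called. Of the 2 other lymphatic markers, Prox1 was lower in bladder at E14.5 (-1.41, adjusted p = 0.0158) and E18.5 (-2.88, adjusted p = 0.000129). Flt4 gave 0.46 at E14.5 (adjusted p = 0.174) and -0.63 at E18.5 (adjusted p = 0.0566).

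Breakdown enzymes split at E18.5. Cemip, a hyaluronan-degrading protein, stood at 24.9 ± 8.05 CPM in bladder and 5.23 ± 1.05 CPM in urethra (2.24 ± 0.28, adjusted p = 8.06e-05). Its relative Cemip2 stood at 41.4 ± 13.6 CPM in bladder and 97.2 ± 14.4 CPM in urethra (-1.23 ± 0.21, adjusted p = 0.000591). Of the 6 tested genes of this list, 3 were higher in bladder and 0 in urethra at E14.5, and 2 and 1 at E18.5 (medians 0.55 and 0.20). Hyal1 and Hyal2 did not pass in either comparison.

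Of 12 tested genes for other hyaluronan-bound matrix proteins, 3 were higher in bladder and 1 in urethra at E14.5, and 5 and 3 at E18.5 (medians 0.45 and 0.18). Itih5, of the inter-alpha-trypsin inhibitor heavy chain family, rose in bladder from 49.0 ± 19.1 to 1468 ± 554 CPM (4.91 ± 0.38, adjusted p = 7.65e-06) and in urethra from 12.6 ± 2.91 to 70.8 ± 12.1 CPM (2.50 ± 0.35, adjusted p = 0.000776). Its bladder excess was 1.97 ± 0.34 at E14.5 (adjusted p = 0.00214) and 4.37 ± 0.37 at E18.5 (adjusted p = 9.32e-06), and the change between stages was 2.41 ± 0.47 (adjusted p = 0.00998). Itih2 was also higher in E18.5 bladder (4.09 ± 0.66, adjusted p = 0.000567). At E18.5 Itih5 and Itih2 were thus higher in bladder and Tnfaip6 in urethra. Ncan, a relative of versican known from the nervous system, was higher in urethra at E14.5 (-1.94 ± 0.38, adjusted p = 0.00383) and E18.5 (-2.36 ± 0.40, adjusted p = 0.000579). Hapln1, named after its values were seen as the relative of Hapln3, fell in bladder from 26.1 ± 8.75 to 7.25 ± 2.27 CPM (-1.86 ± 0.37, adjusted p = 0.00176). It was lower there than in urethra at E18.5 (-1.88 ± 0.37, adjusted p = 0.00204) when Hapln3 gave no called difference.

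Of 15 tested genes that build the chondroitin sulfate chains versican carries, 9 fell and 1 rose with stage in bladder. The median was -0.58, beside -0.023 over all genes, of which 22% fell and 23.7% rose. In urethra 0 fell and 1 rose (median -0.03), against 10.8% and 13.6% of all genes (median -0.055). The compartment difference changed between stages toward urethra for 2 and toward bladder for 0, against 4.03% and 4.64% of all genes. Smooth muscle and epithelial sums, given beside Has1, were also higher in every E18.5 than in every E14.5 bladder library, and the smooth muscle sums of the urethral groups overlapped. Their part in these counts was not tested. At E18.5, 6 were higher in urethra and 1 in bladder (median -0.23), and at E14.5, 2 and 2. Chsy3, a chain polymerase, fell in bladder from 20.7 ± 0.818 to 6.5 ± 0.506 CPM (-1.67 ± 0.21, adjusted p = 7.5e-05) and was lower there than in urethra at E18.5 (-2.18 ± 0.21, adjusted p = 1.63e-05). Its compartment difference changed between stages (-1.58 ± 0.29, adjusted p = 0.00695). Chst11, a sulfotransferase, fell in bladder (-1.21 ± 0.23, adjusted p = 0.00109), and Chst3, of the same class, was lower in E18.5 bladder than in urethra (-1.74 ± 0.22, adjusted p = 8.66e-05). Chst12, a further sulfotransferase, went the other way, higher in bladder at E14.5 (1.42 ± 0.19, adjusted p = 0.000397) and E18.5 (1.96 ± 0.19, adjusted p = 1.46e-05).

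Of 7 proteases that cut versican, 0 were higher in bladder and 3 in urethra at E18.5, against 3 and 2 at E14.5 (medians -0.41 and 0.10). Adamts15 measured 25.3 ± 6.56 CPM in E18.5 bladder and 153 ± 21.4 CPM in E18.5 urethra (-2.60 ± 0.29, adjusted p = 4.64e-05). It fell with stage in bladder (-1.20 ± 0.28, adjusted p = 0.00405), where Adamts5 rose (1.13 ± 0.20, adjusted p = 0.000581). In urethra Adamts1 (1.09 ± 0.13, adjusted p = 0.000286) and Adamts4 (1.49 ± 0.32, adjusted p = 0.00584) rose. Adamts20 was higher in urethra at E14.5 (-1.12 ± 0.23, adjusted p = 0.00457).

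Over the whole pathway list, 23 of 53 genes were higher in bladder and 5 in urethra at E14.5 (median log2 difference 0.44 beside -0.004 over all genes), and 16 and 13 at E18.5 (median 0.02 beside 0.047). With stage, 11 rose and 17 fell in bladder, where 23.7% of all genes rose and 22% fell (median 0.00 beside -0.023). In urethra 13 rose and 2 fell, where 13.6% of all genes rose and 10.8% fell (median 0.28 beside -0.055). The compartment difference changed for 2 genes toward bladder and 7 toward urethra, against 4.64% and 4.03% of all genes (median -0.28 beside 0.018).

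The genes whose log2 CPM followed a member most closely over the 12 libraries were chosen among 12813 candidates by Pearson's r. These libraries fall into 4 groups that share stage and compartment, so r mostly compares group levels and is a description. Has3 was followed by Slc43a2 and Rbm20 (r = 0.973 each) and Ablim3 (r = 0.972). Cd44 ran with Ltbp4 and Ceacam2 (r = 0.974 each) and Prss27 (r = 0.965), and Vcan with Zfp275 and Pds5b (r = 0.938 each) and Hmgb1 (r = 0.937). For Hapln3 the closest were Bambi (r = 0.976), Gata5 and Haus3 (r = 0.966 each), and for Tnfaip6 they were Pcsk2 (r = 0.974), Nav3 (r = 0.97) and Slc35f3 (r = 0.968). Has2 was nearest to B3gnt5 (r = 0.935), Hyal2 to Pinx1 and Ppp2r1b (r = 0.98 each), and Hyal1 to Tmem161a (r = 0.948).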

How the data were processed

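Per the labels' protocols, poly(A)-selected directional libraries from pooled female tissue of 1 litter each were sequenced as read pairs of 100 bases. Reads were handled with HISAT2 2.2.1, bcl2fastq and SAMtools 1.9 on GRCm38, per the submitters' processing notes. Which program counted them, with which annotation and strand setting, is not given in the sources used here. The values the authors deposited are raw counts per gene, with the summed exon length, in 1 table per stage. Per the file headers both tables list the same 55228 genes.

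Genes passing filterByExpr (minimum count 10) were scaled by TMM and tested with edgeR 4.0.16 quasi-likelihood F tests in R 4.3.3. A single model of 4 group means over 12 libraries left 8 residual degrees of freedom. The 5 comparisons were each adjusted by the Benjamini-Hochberg method over all genes, with a threshold of 0.05. The SE is the log2 difference divided by the square root of F. The 3 counts used as a floor correspond to 0.0761 to 0.161 CPM in a single library. No label ties a replicate number to a litter. Deviations of same-numbered bladder and urethral libraries correlated at 0.197, 0.193 and 0.286 at E18.5. At E14.5 they correlated at 0.191, -0.0285 and 0.206. These values do not settle pairing at either stage, because whether differently numbered libraries correlate as closely was not tested. The reported model holds no term for pairing at either stage, and the replicate block was fitted only as an alternative. P-values therefore measure the spread between libraries within groups and treat bladder and urethral libraries as independent at both stages, though they may be paired. Within a group, 0.803% to 3.2% of tested genes had equal counts in a pair of libraries, so none was a copy.

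Members, gene lists and marker lists were chosen with earlier results of these data known. Of the pathway list, up to 3 called genes per sublist and comparison could be named, those of largest change with at least 5 CPM, and those whose call ended in an alternative were then left out. Genes of like pattern are the 3 with the highest Pearson's r for members with a group mean of at least 5 CPM. Scripts were tested on simulated data. Alternatives were DESeq2 1.42.0, limma-voom (limma 3.58.1), median-ratio scaling, other low-count filters, fitting only the libraries compared, a replicate block, and leaving out libraries.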

Additional observations from a re-analysis of the deposited data

Results flagged for a closer look

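The Has1 difference between bladder and urethral mesenchyme changed between stages: the test of that change gave a log2 value of 7.74 ± 1.84 (edgeR's quasi-likelihood test, adjusted p = 0.0276, 3 libraries per group). Has1 had 0 counts in E14.5 bladder, so this size depends on how 0 counts are handled and is no bound. The E14.5 part rests on 0 against 6 counts, and the E18.5 part on 196 against 17 counts, with all 3 bladder libraries above all 3 urethral ones. The call ended with the replicate block (7.64, adjusted p = 0.0627), and over all alternatives the adjusted p ranged from 0.00122 to 0.0666.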

How the results depend on the processing

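Of 866 recomputed log2 differences of the 9 genes, 812 kept their direction and their side of the threshold, 13 lost the call, 18 gained one and 23 changed sign, all of the last with adjusted p above 0.05. Sign changes were -0.01 and -0.03 for Has2 at E14.5 with the stricter filter and with only the libraries compared, -0.17 without replicate 1 of both E14.5 groups, and -0.28 to 0.26 over single left-out libraries. For Hapln3 at E18.5 they were -0.02 with DESeq2 and with median-ratio scaling, -0.01 without a filter, -0.03 with the stricter filter, -0.06 with only the libraries compared, 0.00 without replicate 1 of both E14.5 groups and -0.21 to 0.22 over single left-out libraries. Such ranges also crossed 0 at E14.5 for Hyal2 (-0.03 to 0.16), Cd44 (-0.73 to 0.19) and Vcan (-0.05 to 0.41), at E18.5 for Hyal1 (-0.05 to 0.17) and Hyal2 (-0.18 to 0.01), and for the Cd44 change (-0.79 to 0.12).

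With single libraries left out, members higher in bladder numbered 0 to 1 at E14.5 and 1 to 2 at E18.5, and 0 to 1 changed their compartment difference in each direction. In urethra 1 to 3 fell with stage. The Hapln3 call at E14.5 ended without bladder replicate 2. The Has1 call for the change ended without E14.5 bladder replicate 3, any E14.5 urethral replicate, or E18.5 urethral replicates 1 or 3 (adjusted p 0.0505 to 0.0666). Without replicate 1 of both E14.5 groups, 2 members were higher in E18.5 bladder, 4 fell in urethra and 0 changed their compartment difference toward bladder. The stricter filter left Has1 out, giving 0 higher in E18.5 bladder and 0 for the change. With the replicate block that last count was also 0, and DESeq2 called 1 toward urethra (Hapln3, adjusted p = 0.0411). The block was fitted only for the compartment comparisons and their change, and it changed no other call of a member there.

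Over all genes, the count higher in E14.5 bladder was 1384 when only those libraries were fitted instead of 2335, and DESeq2 called 1333 instead of 758 for the change toward urethra. Leaving out single libraries gave 1403 to 2403 and 470 to 917 for these counts, 1261 to 2729 for higher in E14.5 urethra (2342 as reported), 502 to 1505 for the change toward bladder, and 1461 to 2909 up and 890 to 2260 down in urethra (2558 and 2028 as reported). Without replicate 1 of both E14.5 groups 1450 instead of 873 changed toward bladder. Causes were not tested, other than the genes the filter removed. Depth limits Has1, which had at most 2 counts in any E14.5 library.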
